A study of Mus musculus with 6 samples.

Results

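The genes described here are 36 interferon-stimulated genes that lie outside the IFIT, OAS, GBP, TRIM, PARP and MHC families, and their mRNA was compared between intestine of control mice and of mice with experimental necrotizing enterocolitis (NEC). They were taken by symbol from a fixed list. All 36 matched an identifier among the 54446 in the count table, and all 36 were among the 19176 genes with enough counts to test. The rule uses no measured value, but the list was drawn up with earlier results of these data known. RNA-seq was made from 6 wild-type intestine samples, 3 per group, collected at 96 h. Control pups stayed with the dam, without hypoxia or cold. NEC pups were gavaged with 40 µl portions of formula (33% Esbilac, a milk replacer) at intervals of 4 h, and at intervals of 12 h they had 100 s of 99.9% nitrogen and then 10 min at 4 °C. The series title names the histone deacetylase HDAC8 and arginine-proline metabolism, but the labels give no drug and no genetic change in any sample. Feeding, hypoxia and cold differ together between the groups, so their parts cannot be told apart. Intestinal segment, strain, age and sex were not given in the sources used.

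Interferons are secreted proteins that signal through cell surface receptors and JAK kinases. Type I and type III interferons act mainly through interferon-stimulated response elements (ISREs) in the promoters of target genes, while interferon-gamma acts mainly through GAS sites. In the adult mouse gut, epithelial cells respond mainly to type III and immune and stromal cells mainly to type I interferon. This split may differ in pups. The products block viral entry, replication and budding, and several also act in cell death, antigen display and immune restraint.

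Total counts per library ranged from 69441184 to 106304239, and the epithelial adhesion gene Epcam was present at 1833 to 2953 CPM (counts scaled to a common library size by the TMM method) in all 6 libraries. The libraries differed in sex-linked transcripts. Xist, the RNA of the silenced X chromosome, stood at 179 CPM in control replicate 1 and 344 CPM in control replicate 2, against 0.429 to 1.17 CPM in the other 4 libraries. The Y-linked Eif2s3y stood at 40.2 CPM in control replicate 1, 1.38 CPM in control replicate 2 and 56.8 to 95.96 CPM in the other 4, so control replicate 1 held both kinds of transcript and the group labels run partly together with sex. The labels also carry sample codes that start AG181017 (control replicates 1 and 2, NEC replicates 2 and 3) or AG181028 (control replicate 3, NEC replicate 1), without saying what the codes stand for. Nothing in the labels says that samples came from separate animals, and the spread that the p-values rest on may be partly technical.

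In NEC intestine 5 of the 36 genes fell and none rose. These were Ifi44 (73.2-fold by the fitted value), Ddx60 (9.35-fold), Xaf1 (6.996-fold), Rnf213 (5.52-fold) and Ifi27 (4.24-fold), by edgeR's quasi-likelihood test at an adjusted p below 0.05 over all genes. Over all genes tested 0.443% passed in this direction (85 genes) and 0.261% in the other (50 genes). The log2 fold change, NEC over control, was negative in 30 members and positive in 6, with a median of -1.35 beside 0.03 over all genes tested. All 3 NEC libraries were below all 3 controls in 20 members, where 11.6% of all genes did so, and above in 3 members (Tor3a, Ifitm3 and Ifitm1), where 10.8% did so. An unadjusted p below 0.05 with a negative value was found for 21 members and for 7.99% of all genes. The calls depended on single libraries. Without control replicate 1 or without NEC replicate 3 no member passed, without control replicate 3 Ifi44 alone, and without NEC replicate 2 Ifi44 and Rnf213, and without control replicate 2 Ifi44, Xaf1, Rnf213 and Mx2. Without NEC replicate 1, 6 passed, Ifi27 giving way to Cmpk2 and Rtp4. Over all genes, lower and higher calls numbered 0 and 0 without control replicate 1, and 1 and 2 without NEC replicate 3. The loss of calls in those fits was therefore not confined to the members. All-gene calls were 21 and 4 without control replicate 3, and 44 and 57 without NEC replicate 2. They were 80 and 26 without control replicate 2, and 24 and 10 without NEC replicate 1. The median over members stayed between -1.67 and -1.06 with any 1 library left out. In an alternative added after seeing the data, control replicate 3, a library low in Xist, was set alone against the 3 NEC libraries. No member passed there either, the median was -1.46, and 25 members had every NEC library below that control, where 29.9% of the genes tested in that fit did so.

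**Figure D1:**
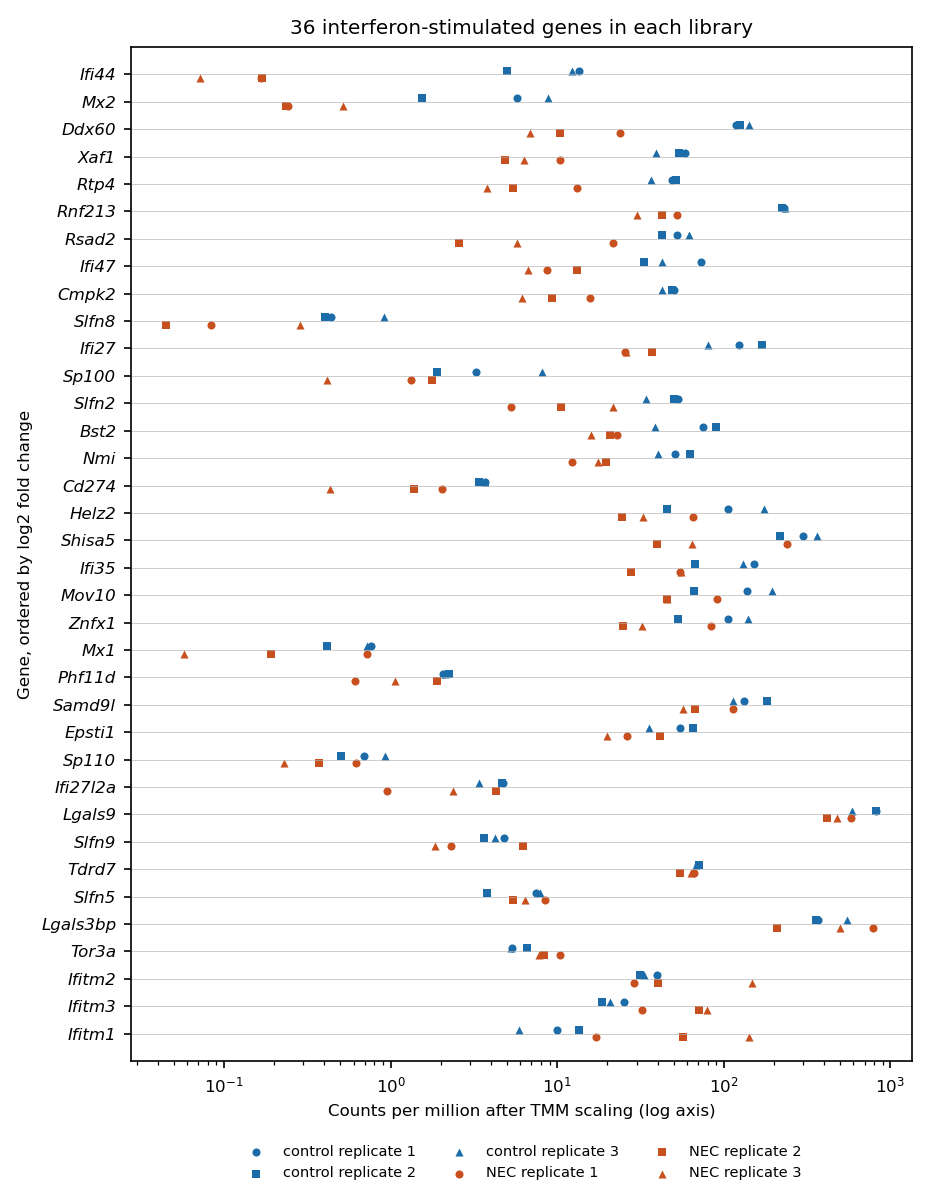
TMM-scaled CPM (log axis) of the 36 genes in each of the 6 libraries, ordered by log2 fold change from the most negative at the top. Control libraries are blue and NEC libraries orange, and in 20 genes every NEC point lies left of every control point, while Tor3a, Ifitm3 and Ifitm1 at the bottom have every NEC point to the right.

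Since these genes were listed as interferon targets, their promoters were searched for the ISRE core, read as GAAA, any 2 bases and GAAA again, on both strands. RefSeq windows on GRCm38.p6 (250 bases before to 50 after a transcription start) were at hand for 30 members. The windows were missing for Mx1, Mx2, Ifi27, Ifi27l2a, Rtp4 and Tor3a. The core was present in 11 of the 30 (36.7%), against 3.44% of all 32851 windows and 3.99% of the 27025 genes with a window. It was found for Bst2, Ddx60, Ifitm2, Ifitm3, Lgals9, Rsad2, Shisa5, Slfn5, Slfn8, Slfn9 and Tdrd7. Stretches of 140 bases ending at the base before a gene's start (for Bst2, before its RefSeq start) are shown for Ddx60, Rsad2, Slfn8, Bst2, Lgals9 and Slfn9. These are the members with a core upstream of the start and the most negative values. They let the cores be compared between fitted values far from and near 0, and of these genes only Ddx60 passed the test. Ifitm2, added after its value was seen, is shown as a member with a positive value. Each reads 5′ to 3′ on the gene's strand in lower case, with the core in capitals, and a core on the other strand appears as TTTC, any 2 bases and TTTC.
Ddx60: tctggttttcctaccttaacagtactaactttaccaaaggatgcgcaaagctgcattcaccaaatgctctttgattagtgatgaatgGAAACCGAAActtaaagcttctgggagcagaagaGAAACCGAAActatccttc
Rsad2: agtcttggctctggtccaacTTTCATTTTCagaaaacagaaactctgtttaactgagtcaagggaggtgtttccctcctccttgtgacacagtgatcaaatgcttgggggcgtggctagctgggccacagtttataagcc
Slfn8: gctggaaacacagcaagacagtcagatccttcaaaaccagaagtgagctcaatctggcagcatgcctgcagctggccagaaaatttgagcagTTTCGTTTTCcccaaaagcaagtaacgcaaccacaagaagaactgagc
Bst2: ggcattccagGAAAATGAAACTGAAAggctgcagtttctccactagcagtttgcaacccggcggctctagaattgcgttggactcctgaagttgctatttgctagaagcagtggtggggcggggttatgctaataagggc
Lgals9: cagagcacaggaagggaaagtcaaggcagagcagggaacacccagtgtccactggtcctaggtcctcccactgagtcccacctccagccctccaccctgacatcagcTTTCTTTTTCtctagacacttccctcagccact
Slfn9: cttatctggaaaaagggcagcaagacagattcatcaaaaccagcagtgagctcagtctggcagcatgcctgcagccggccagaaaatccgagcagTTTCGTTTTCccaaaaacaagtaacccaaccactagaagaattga
Ifitm2: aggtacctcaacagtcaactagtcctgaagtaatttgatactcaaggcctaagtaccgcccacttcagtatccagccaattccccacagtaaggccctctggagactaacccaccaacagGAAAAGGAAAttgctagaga
The positions are chr8:61927947-61928086 on the plus strand for Ddx60, and on the minus strand chr12:26456453-26456592 for Rsad2, chr11:83020811-83020950 for Slfn8, chr8:71537473-71537612 for Bst2, chr11:78984947-78985086 for Lgals9, chr11:82991831-82991970 for Slfn9 and chr7:140955988-140956127 for Ifitm2. Ddx60 holds 2 separate cores, starting 53 and 19 bases before the RefSeq start, and Bst2 holds 2 that overlap. Slfn8 and Slfn9 carry the same core letters at nearly the same distance from their starts. Their log2 fold changes were -2.09 (95% interval -4.04 to -0.14) and -0.28 (-1.45 to 0.89), intervals that overlap. Slfn8 had at most 0.913 CPM in any library, so the 2 genes cannot show how the core relates to the change. Tdrd7, at -0.18, also holds a core. Of the called genes with a window, Ddx60 holds the core and Ifi44, Xaf1 and Rnf213 do not. With the shorter core AANNGAAA, 25 members (83.3%) had a match, including Ifi44 and Xaf1, against 26.7% of the genes with a window and 23.9% of all windows. The GAS pattern TTCNNNGAA was present in Bst2, Ifi35, Ifitm3 and Shisa5 (13.3%), against 9.55% of the genes with a window and 8.3% of all windows, and in Bst2, Ifitm3 and Shisa5 its letters overlap an ISRE core. These are matches of letters in a window and not measured binding sites.

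Among the signalling partners and single genes of varied role, 2 of 7 fell. Ifi44, an interferon-induced cytoplasmic protein (ENSMUSG00000028037, mm10 chromosome 3, 151730922 to 151749960, minus strand), had 13.5, 4.99 and 12.2 CPM in control replicates 1 to 3 and 0.168, 0.169 and 0.0718 CPM in NEC replicates 1 to 3. The lowest control was many times the highest NEC library. Its log2 fold change of -6.19 (SE 0.60, 95% interval -7.59 to -4.80, edgeR adjusted p = 0.0181) was the most negative of the 36, and it passed in 14 of 18 alternatives. NEC counts were 16, 15 and 5, so the size of the fold rests on few reads. Among low counts in this table, multiples of 4 outnumbered adjacent values 1.93 to 1, and the fragments behind these counts may be fewer still. Rnf213 (ENSMUSG00000070327, chromosome 11, 119393100 to 119487418, plus strand), a giant ubiquitin ligase, had 231, 225 and 234 CPM in control and 52.2, 42.4 and 30.2 CPM in NEC. Controls agreed closely here and the NEC libraries were all far below them (log2 fold change -2.46, SE 0.27, 95% interval -3.08 to -1.85, edgeR adjusted p = 0.0196). It overlaps A930037H05Rik on the opposite strand in part of its exons, and without a stated strand setting their reads cannot be told apart. The same holds for shorter overlaps of Ifi47, Cd274, Ifi35, Znfx1, Sp110 and Slfn5 with genes on the other strand. Rtp4, a Golgi chaperone of cell surface receptors, had 48.9, 51.95 and 36.3 CPM in control and 13.2, 5.45 and 3.78 CPM in NEC. The groups did not overlap, but the value of -2.61 (SE 0.48) missed the threshold at an edgeR adjusted p of 0.0627. Nmi and Ifi35, which bind each other, were at -1.63 (SE 0.28, adjusted p = 0.0537) and -1.35 (SE 0.40, adjusted p = 0.167), without overlap of the groups in either. Epsti1 (-0.82, SE 0.35) had overlapping groups. Tor3a, a torsin ATPase of the endoplasmic reticulum, went the other way, with 5.33, 6.58 and 5.28 CPM in control and 10.4, 8.37 and 7.80 CPM in NEC (0.63, SE 0.28, adjusted p = 0.338).

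Of 4 cell death and ISG12 family genes 2 fell. Xaf1, which counters the apoptosis inhibitor XIAP (ENSMUSG00000040483, chromosome 11, 72301629 to 72313733, plus strand), had 58.8, 53.8 and 39.1 CPM in control and 10.4, 4.87 and 6.35 CPM in NEC. The groups lay well apart, at -2.81 on the log2 scale (SE 0.36, 95% interval -3.63 to -1.98, edgeR adjusted p = 0.0339). Ifi27, a small membrane protein of the ISG12 family (ENSMUSG00000064215, chromosome 12, 103434211 to 103440239, plus strand), had 124, 170 and 80.1 CPM in control and 25.5, 36.9 and 25.7 CPM in NEC. Its groups did not overlap either, but controls varied by more than those of Rnf213. The call at -2.08 (SE 0.33, 95% interval -2.85 to -1.31, edgeR adjusted p = 0.0457) was lost with any 1 library left out, where adjusted p ran from 0.0536 to 0.234. Its neighbour and relative Ifi27l2a had 4.73, 4.64 and 3.38 CPM in control and 0.954, 4.28 and 2.38 CPM in NEC, so NEC replicate 2 lay within the control range (-0.74, SE 0.54, adjusted p = 0.569). Shisa5, an endoplasmic reticulum protein tied to apoptosis, had 300.2, 216 and 363 CPM in control. In NEC it had 241 CPM in replicate 1, within the control range, but 39.7 and 64.8 CPM in replicates 2 and 3 (-1.35, SE 0.63, adjusted p = 0.361).

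Of the 5 helicases and RNA-binding proteins 1 fell. Ddx60, a helicase-like protein linked to RNA sensing by RIG-I (ENSMUSG00000037921, chromosome 8, 61928087 to 62038244, plus strand), had 119, 125 and 141 CPM in control and 23.8, 10.4 and 6.90 CPM in NEC. The lowest control was far above the highest NEC library, NEC replicate 1. Its log2 fold change was -3.22 (SE 0.47, 95% interval -4.31 to -2.14, edgeR adjusted p = 0.0396). Helz2 (-1.41, SE 0.54), the retroelement restriction helicase Mov10 (-1.13, SE 0.45) and the double-stranded RNA sensor Znfx1 (-1.07, SE 0.53) had overlapping groups, since NEC replicate 1 lay above control replicate 2 in each. The tudor protein gene Tdrd7 had a narrow range, 68.1 to 71.4 CPM in control and 54.8 to 66.6 CPM in NEC. All 3 NEC libraries were below the controls, yet by little, at -0.18 (SE 0.20, 95% interval -0.64 to 0.29, adjusted p = 0.735).

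No GTPase and neither member of the viperin pair passed the test, although these groups had the most negative medians, -2.38 and -2.29. Mx2, a dynamin-like antiviral GTPase, had 5.76, 1.55 and 8.75 CPM in control and 0.241, 0.237 and 0.517 CPM in NEC. Control replicate 2 was low, but still above all NEC libraries (-4.02, SE 0.73, adjusted p = 0.0605), and the annotation marks Mx2 as a polymorphic pseudogene. Its counts in NEC replicates 1 to 3 were 23, 21 and 36, so the size of the fold rests on few reads. Mx1, beside it on chromosome 16, had under 1 CPM in every library and overlapping groups (-0.95, SE 0.87, adjusted p = 0.666). Ifi47, an immunity-related GTPase, had 73.2, 33.3 and 42.7 CPM in control and 8.71, 13.2 and 6.65 CPM in NEC (-2.38, SE 0.40, adjusted p = 0.0509). Rsad2 encodes viperin, which makes a nucleotide that ends viral RNA chains, and had 52.6, 42.8 and 61.6 CPM in control and 21.5, 2.56 and 5.72 CPM in NEC. NEC replicate 1 stood well above the other NEC libraries, and the value of -2.40 (SE 0.71) had an adjusted p of 0.170. Cmpk2, a nucleotide kinase gene beside Rsad2 on chromosome 12, had 50.3, 48.6 and 42.4 CPM in control and 15.8, 9.31 and 6.11 CPM in NEC. The groups did not overlap for either neighbour, and Cmpk2 was at -2.18 (SE 0.37, adjusted p = 0.0527).

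None of the 4 membrane restriction factors passed the test in the main fit, and the signs of their fitted values differed. Bst2, or tetherin, which holds budding virions at the cell surface, had 74.7, 89.5 and 38.9 CPM in control and 22.8, 20.8 and 15.9 CPM in NEC (-1.77, SE 0.35, adjusted p = 0.0720). All NEC values were below all control values. The 3 Ifitm genes, whose products block fusion of viral and endosomal membranes, had positive values and lie together on chromosome 7. Ifitm1 had 9.92, 13.5 and 5.87 CPM in control and 17.2, 57.2 and 142 CPM in NEC. Its NEC libraries spread over a wide range but all lay above the controls (2.89, SE 0.72, edgeR adjusted p = 0.119). Ifitm3 had 25.1, 18.5 and 20.6 CPM in control and 32.1, 70.7 and 78.8 CPM in NEC, again without overlap (1.5, SE 0.36, edgeR adjusted p = 0.110). Under DESeq2 alone both passed, with adjusted p of 0.000649 for Ifitm1 and 0.00453 for Ifitm3, where the 18 alternatives ran up to 0.442 and 0.477. DESeq2 called many more genes in general, 699 higher and 753 lower over all genes, and it called 14 members lower. Ifitm2 had 39.6, 31.6 and 33.2 CPM in control and 28.98, 40.2 and 147 CPM in NEC. Only NEC replicate 3 stood clear of the controls, and without it the log2 fold change went from 1.05 (SE 0.57) to -0.01. NEC replicate 1 was the lowest NEC library for all 3.

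**Figure D2:**
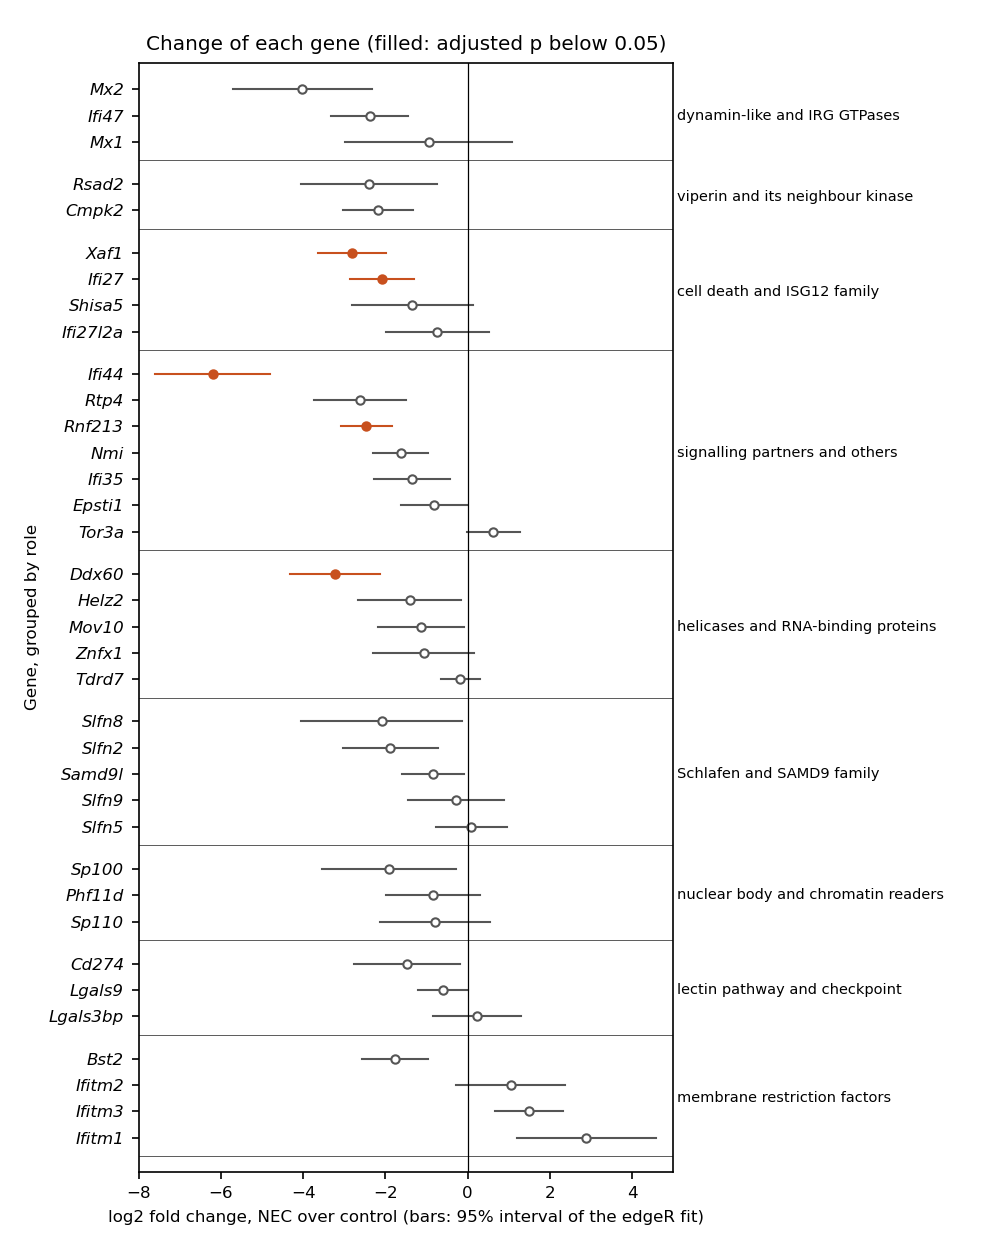
Log2 fold change (NEC over control) of each of the 36 genes in 9 role groups, with bars for the 95% interval of the edgeR fit and filled points for an adjusted p below 0.05. The 5 filled points, Xaf1, Ifi27, Ifi44, Rnf213 and Ddx60, lie in 3 role groups, and the Ifitm genes stand to the right of 0 in the bottom group.

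The Schlafen and SAMD9 group, the nuclear body group and the lectin and checkpoint group had no calls. Slfn2, needed for T cell quiescence, had 52.9, 49.9 and 34.3 CPM in control and 5.28, 10.6 and 21.6 CPM in NEC. NEC replicate 1 was its lowest library, unlike Rsad2 and Ddx60, and the value was -1.88 (SE 0.50, adjusted p = 0.135). Slfn8 was near the limit of detection, with at most 0.913 CPM in any library (-2.09, SE 0.84, adjusted p = 0.289). Slfn9 (-0.28, SE 0.50) and Slfn5 (0.09, SE 0.37) had overlapping groups, and close paralogs in this cluster on chromosome 11 may share reads. The growth and antiviral regulator Samd9l was at -0.84 (SE 0.33, adjusted p = 0.278). Of the nuclear body and chromatin genes, Sp100 had 3.26, 1.91 and 8.06 CPM in control and 1.32, 1.78 and 0.417 CPM in NEC (-1.91, SE 0.70, adjusted p = 0.255). The groups were separate only by the gap between control replicate 2 and NEC replicate 2. Phf11d was at -0.84 (SE 0.49) and Sp110 at -0.79 (SE 0.58). Cd274 encodes the checkpoint ligand PD-L1 and had 3.68, 3.39 and 3.68 CPM in control against 2.03, 1.39 and 0.431 CPM in NEC (-1.48, SE 0.56, adjusted p = 0.263). The galectin gene Lgals9 had 818, 825 and 589 CPM in control and 581, 418 and 477 CPM in NEC, so its groups nearly touched (-0.60, SE 0.26, adjusted p = 0.326). Lgals3bp, a secreted galectin-binding glycoprotein, had 369, 357 and 548 CPM in control. NEC replicate 1 was the highest of all at 784 CPM, NEC replicate 2 the lowest at 210 CPM, and NEC replicate 3 lay within the control range at 496 CPM (0.23, SE 0.46, adjusted p = 0.875).

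Ranked by control level per kilobase of exon, Lgals9 was the most abundant member at 348 ± 62.96 CPM per kilobase (SD, n = 3), followed by Lgals3bp at 149 ± 37.7. Shisa5 (88.9 ± 22.3), Ifi27 (84.9 ± 30.5), Bst2 (74.96 ± 28.8) and Ifi35 (67.7 ± 25.8) came next and did not differ from one another beyond their spread. Ifitm2 (53.1 ± 6.49), Ifitm3 (31.5 ± 4.98), Slfn2 (27.5 ± 6.003) and Samd9l (26.2 ± 6.41) completed the 10 highest. Only 6 of these 10 were also among the 10 highest by CPM without scaling for length, since long mRNAs such as Rnf213 gather more reads. The called genes were at places 4 (Ifi27), 17 (Ddx60), 18 (Rnf213), 22 (Xaf1) and 26 (Ifi44) per kilobase. So 1 was in the top 10 and none in the bottom 10, which held 3 members under 1 CPM in every library. In NEC, Lgals9 (230 ± 38.7) and Lgals3bp (174 ± 101) kept the first places, and Ifitm2 (110 ± 99.4), Ifitm3 (89.3 ± 36.8) and Ifitm1 (65.99 ± 58.4) came next. Ifitm1 was at place 25 in control, with 8.93 ± 3.50 CPM per kilobase.

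**Figure D3:**
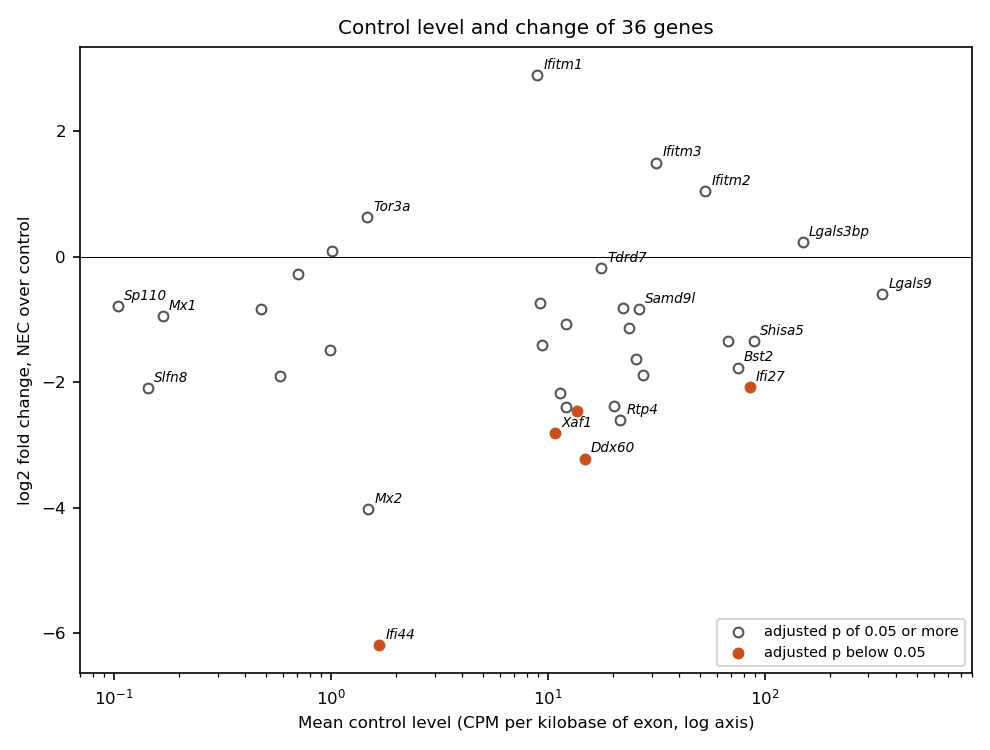
Mean control level (CPM per kilobase of exon, log axis) against the log2 fold change of each of the 36 genes, with filled points for an adjusted p below 0.05. The most abundant members, Lgals9 at 348 and Lgals3bp at 149, sit near 0, and the most negative values belong to Ifi44 and Mx2 at under 2 CPM per kilobase.

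Over these members, the NEC libraries did not lie equally far from the controls. NEC replicate 1 was the highest NEC library in 20 members, replicate 2 in 9 and replicate 3 in 7, while the controls shared the highest place 12, 11 and 13 times. The median log2 difference from the control mean was -0.89, -1.22 and -1.35 in NEC replicates 1 to 3, and 30 members lay below the control mean in each of them. These counts and medians were not taken over all genes, so whether the order of libraries is particular to the members was not tested. Within the AG181017 samples, 2 against 2, both NEC libraries were below both controls in 29 members, where 22.6% of all genes were, and the median log2 difference over members was -1.30. Within AG181028, NEC replicate 1 was below control replicate 3 in 29 members, where 50.9% of all genes were, and the median was -1.17, with 1 library per group and no test. For the 5 called genes the medians were -3.23 and -2.15. The Ifitm genes were higher in NEC within AG181017, by 2.91 for Ifitm1 and 1.77 for Ifitm3, and by 1.47 and 0.63 within AG181028. Ifitm2 was at 1.11 and -0.19. Tor3a (0.42 and 0.91) and Slfn5 (0.13 and 0.1) were also positive within AG181017 and AG181028. What the codes stand for is unknown. In a fit with the code as a term the median over members was -1.43 and 9 members were called lower. Over all genes that fit called 155 lower, where the main fit called 85 genes and 5 members lower.

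**Figure D4:**
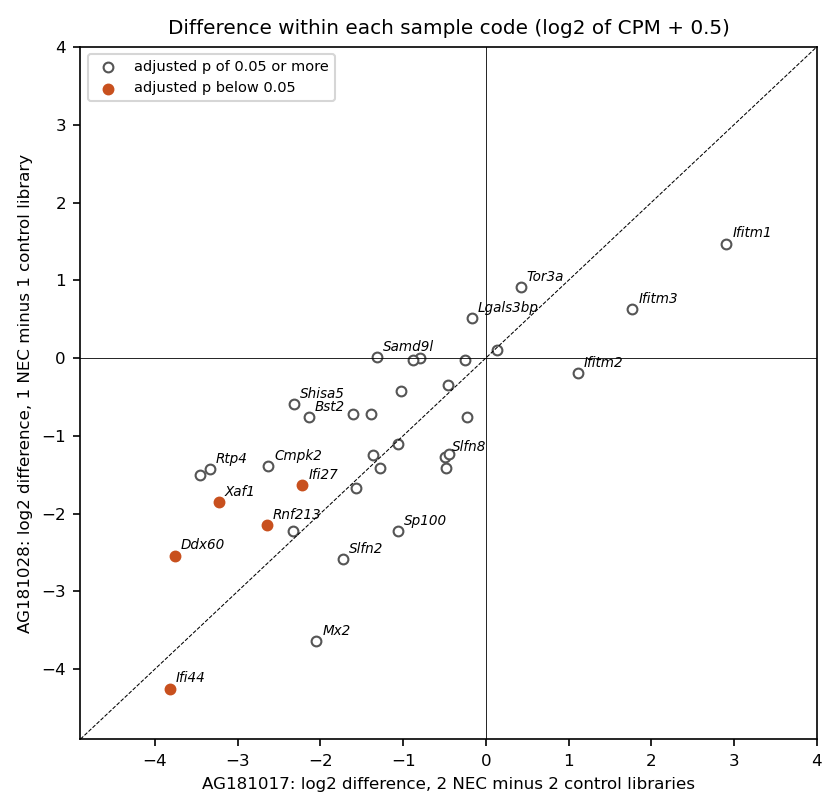
Difference between NEC and control in log2 of CPM + 0.5 for the 36 genes, within the samples coded AG181017 (2 libraries per group, x axis) and AG181028 (1 per group, y axis), with a dashed line of equality. The 5 filled points (adjusted p below 0.05 in the fit of all 6 libraries) are negative on both axes, while Ifitm1, Ifitm3, Tor3a and Slfn5 are positive on both.

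Other genes of the pathway, from lists of 77 genes of which 64 were testable, had 23 calls, all lower in NEC, and a median of -1.34. Interferon genes themselves were close to absent. All 13 listed were too low to test, 8 of them (Ifnb1, 5 Ifna genes, Ifnl2 and Ifnl3) had no count in any library, and their summed level was 0.189 to 0.560 CPM per library, with Ifnk at 0.0760 to 0.474 CPM. None of the 9 receptors and kinases passed (median -0.34), and Tyk2 had the smallest p (-1.01, SE 0.32, adjusted p = 0.202). Of 9 transcription factors, 2 fell. Irf7, which amplifies interferon responses, had 208, 122 and 180.2 CPM in control and 52.99, 37.2 and 40.0 CPM in NEC (-1.97, SE 0.29, edgeR adjusted p = 0.0396). Irf1, at 181 to 244 CPM in control and 38.3 to 69.1 CPM in NEC, had nearly the same value (-1.96, SE 0.29, adjusted p = 0.0396). None of 8 signalling brakes passed (median -0.05), with Usp18 at -2.29 (SE 0.59, adjusted p = 0.124). In the IFIT, OAS, GBP, TRIM, PARP, MHC and related families 21 of 38 fell and none rose (median -2.11), for instance the ubiquitin-like Isg15 from 80.3 to 137 CPM in control to 1.24 to 3.13 CPM in NEC (-5.45, SE 0.46, edgeR adjusted p = 0.0150). Without control replicate 1 or NEC replicate 3 none of the 64 passed.

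Markers of cell types were set beside these values, because fewer cells of a type and less RNA per cell cannot be told apart in bulk tissue. Of 12 epithelial markers none passed (median -0.11, 8 negative and 4 positive). Their summed level was 13820 to 17770 CPM in control and 13920 to 19930 CPM in NEC. The keratins Krt19 (1.56, SE 0.34, edgeR adjusted p = 0.0891) and Krt8 (0.41, SE 0.25, edgeR adjusted p = 0.4745) had every NEC library above every control. Among 12 macrophage markers the scavenger receptor Cd163 rose, from 0.200 to 0.382 CPM in control to 2.02 to 5.33 CPM in NEC (3.71, SE 0.54, edgeR adjusted p = 0.0396). The list had a median of 0.60, with 10 positive and 2 negative values, and summed levels of 335 to 424 and 229 to 366 CPM. Csf1r, at 245 to 319 CPM in control, made up most of the control sum and was at -1.10 (SE 0.24, adjusted p = 0.0919). Cd68 was at 1.31 (SE 0.26, adjusted p = 0.0773), with every NEC library above every control. Of 8 endothelial markers the lymphatic gene Lyve1 rose (2.64, SE 0.33, edgeR adjusted p = 0.0307), the median was 0.06, and summed levels were 82.2 to 171 and 140 to 171 CPM. Stromal markers (9 of 9 tested, none called, median 0.34) summed to 956 to 1423 CPM in control and 806, 2848 and 1285 CPM in NEC replicates 1 to 3. Lymphoid and dendritic lists were low and had no calls. T cell markers (8 of 9 tested, median -0.36, 5 negative and 3 positive) summed to 8.32 to 27.5 and 8.03 to 11.3 CPM. Cd3e, too low to test, was at a mean of 0.0847 and 0.0245 CPM. Trac had 13.6, 2.03 and 17.4 CPM in control and 0.556, 0.485 and 0.704 CPM in NEC (-4.24, SE 0.77, adjusted p = 0.0607). The 3 positive values were those of Lck (0.75, SE 0.44), Cd3d (0.55, SE 0.67) and Thy1 (0.20, SE 0.37). For Lck every NEC library was above every control. NK cell markers (4 of 7 tested, median -0.17) summed to 1.18 to 5.0 and 2.003 to 3.36 CPM, B cell markers (5 of 6, median -0.63) to 1.32 to 7.36 and 1.78 to 2.93 CPM, and dendritic cell markers (6 of 8, median -0.20) to 5.86 to 12.6 and 4.86 to 7.52 CPM. Plasmacytoid dendritic cell markers (6 of 8, median 0.02) summed to 7.73 to 11.2 and 9.54 to 49.3 CPM. Their defining gene Siglech, a marker of cells that also carry Bst2, was at 0.491 to 0.747 CPM in control and 0.115 to 0.273 CPM in NEC (-1.86, SE 0.63, adjusted p = 0.217), while Tcf4 (1.98, SE 0.70, adjusted p = 0.235) and Klk1 (1.66, SE 0.59, adjusted p = 0.239) of the same list had positive values. Neutrophil markers (4 of 8 tested, none called, median 4.07) summed to 0.422 to 1.59 CPM in control and 2.74, 25.3 and 7.04 CPM in NEC. S100a8 (5.22, SE 1.25, adjusted p = 0.110), S100a9 (4.81, SE 1.19, adjusted p = 0.115) and Retnlg (3.33, SE 1.34, adjusted p = 0.289) had every NEC library above every control. Csf3r was at -0.90 (SE 0.80), and Ly6g and Elane were at 0 in all libraries. The part of these cell types in the values of the 36 genes was not tested.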

How the data were processed

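Whole-number gene counts for 6 libraries (3 control, 3 NEC) were used as the authors deposited them. The genome build was mm10, per the submitters' processing notes, with aligner, counter, annotation and strandedness not given in the sources used here. Library totals were 69441184 to 106304239 counts, every column was mapped to a sample by its code, and 54409 of 54446 identifiers matched a symbol.

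Counts were fitted in R 4.3.3 with edgeR 4.0.16. The filterByExpr filter (minimum count 10) left 19176 genes. Libraries were scaled by TMM, and the robust quasi-likelihood F test compared NEC with control, with Benjamini-Hochberg adjustment over all genes tested and a threshold of 0.05. SE and 95% intervals come from that fit. Differences between libraries used log2 of CPM + 0.5. Gene positions and exon lengths are those of the GENCODE annotation on mm10, counted from 1. Promoter windows are RefSeq's on GRCm38.p6. The procedure was tested on simulated data. No pair of libraries agreed within sampling noise.

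The members, gene lists and tests were chosen with earlier results of these data known. All 36 members are named. Of each pathway list the genes with the smallest p were eligible, and of each cell type list the defining markers and those near 0. The promoter stretch of Ifitm2 lies outside that rule. The 18 alternatives were 3 other scalings, 2 other filters, DESeq2 1.42.0, limma-voom (limma 3.58.1), the non-robust fit, a replicate block, a sample code term, AG181017 alone, leaving out each library in turn, and control replicate 3 against NEC. The last was added after seeing the data.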

Additional observations from a re-analysis of the deposited data

How the results depend on the processing

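Over the 18 alternatives, 574 of the members' single values kept direction and side of the threshold, 31 (5 members) lost a call, 34 (11 members) gained one and 8 (4 members) changed sign, and the cause was not tested. The 5 members called lower became 11 without a low-count filter, 8 with at least 50 counts in 3 samples, 14 with DESeq2, 8 with limma-voom, 9 with the sample code as a term, 3 in the AG181017 samples alone (2 against 2), 0 with control replicate 3 against NEC, and 0 to 6 with 1 library left out. With no member called higher otherwise, DESeq2 gave 2 (Ifitm1 and Ifitm3). Over all genes, the 85 lower and 50 higher calls became 148 and 99 without a filter, 753 and 699 with DESeq2, 155 and 88 with the code term, 18 and 7 in AG181017 alone, 1 and 0 with control replicate 3 against NEC, and 0 to 80 and 0 to 57 with 1 library left out. The 23 calls in the other pathway lists became 35 with DESeq2, 6 in AG181017 alone, 0 with control replicate 3 against NEC, and 0 to 15 with 1 library left out. The median over members ran from -1.67 to -1.06 with 1 library left out.

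Signs changed for Slfn9 (-1.03 to 0.02 with 1 library left out), Slfn5 (-0.18 to 0.27, and -0.22 with control replicate 3 against NEC), Lgals3bp (-0.27 to 0.59, -0.07 in AG181017 alone and -0.14 with control replicate 3 against NEC) and Ifitm2 (-0.01 to 1.42). Ifi27 was also lost with upper quartile scaling and with library size alone. With the replicate number as a block, 4 members were called lower (Ddx60 was lost), and all genes gave 38 lower and 16 higher. The correlations of same-numbered deviations were -0.164, 0.369 and -0.0128 for replicates 1 to 3. Replicate numbers 1 and 3 each join samples of different codes, and replicate number 2 joins samples of the same code. The correlations therefore cannot show whether same-numbered samples were paired. In NEC, Ifi44, Mx2, Slfn8, Mx1 and Sp110 are so low that depth limits the size of their folds.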

Other observations

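Relatives of the members outside the list, picked by symbol stem after values were seen, went in several directions. Ifi27l2b, next of kin to Ifi27l2a, was far more abundant than either listed relative, with 1054, 878 and 591 CPM in control and 228, 304 and 416 CPM in NEC. Its groups did not overlap, but the log2 fold change of -1.41 (SE 0.33) had an edgeR adjusted p of 0.107. In the Schlafen cluster, Slfn4 had 12.8, 5.76 and 14.1 CPM in control and 4.90, 2.89 and 5.43 CPM in NEC (-1.31, SE 0.43, edgeR adjusted p = 0.213), while Slfn3 had 0 to 0.164 CPM in control and 0.409 to 0.767 CPM in NEC (2.74, SE 1.04, adjusted p = 0.265). Ifitm6 was at 2.01 (SE 0.96, adjusted p = 0.366), the same sign as the 3 Ifitm genes above, at 0.0545 to 1.37 CPM, and Ifitm7 had no count in any library. None of these relatives passed the test.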
